A study of Mus musculus with 6 samples.

Results

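The genes described here encode the subunits of the receptors for GABA, glutamate, glycine and acetylcholine: GABA-A subunits (Gabr genes), AMPA and delta (Gria, Grid), kainate (Grik) and NMDA subunits (Grin), metabotropic glutamate receptors (Grm), glycine receptor subunits (Glr) and nicotinic subunits (Chrn). They were chosen by symbol: 66 of the 38926 gene symbols in the tables fitted the naming pattern, and the 59 with at least 10 reads summed over the 6 libraries are the members. Of these, 51 had enough reads in the single libraries to be tested among 16706 genes in all. The libraries were made from total RNA of dorsal root ganglia of lumbar levels L3, L4 and L5, on the side of the treated paw, from wild-type (WT) female C57BL/6 mice aged 8 to 10 weeks. The vincristine group received a cumulative 40 µg of the drug by the intraplantar route, and the control group received vehicle. Each group has 3 libraries, and each library is a pool of the ganglia of 4 animals. Values in sets of 3 below follow replicates 1, 2 and 3. Vincristine is a vinca alkaloid of cancer chemotherapy that binds tubulin, and sensory neuropathy is a known side effect.

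Ligand-gated receptors are assembled from several subunits around a central pore, and the subunits present set which ions pass, how fast the channel closes and which drugs bind. GABA-A and glycine receptors conduct chloride, whereas AMPA, kainate, NMDA and nicotinic receptors conduct cations, and metabotropic glutamate receptors act through G proteins. In sensory ganglia the cell bodies are depolarised by GABA, since these neurons keep a high internal chloride, and the receptor proteins are also carried to the central and peripheral terminals.

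The promoters of 3 members are printed to show the sequence upstream of genes from the nicotinic, AMPA and kainate families described below, a pair with lower and 1 with higher values in the vincristine libraries, none past the edgeR or DESeq2 threshold. Each is the 250 bases before the start of the gene in RefSeq (GRCm38.p6), 5′ to 3′ on the strand of the gene, all on the minus strand: Chrna7 at chr7:63212527-63212776, Gria4 at chr9:4796235-4796484 and Grik2 at chr10:49788755-49789004. Capitals mark matches, on either strand, to the GC box GGGCGG, the TATA box TATAAA, the E-box CACGTG, the cAMP response element TGACGTCA or the AP-1 site TGANTCA.
Chrna7: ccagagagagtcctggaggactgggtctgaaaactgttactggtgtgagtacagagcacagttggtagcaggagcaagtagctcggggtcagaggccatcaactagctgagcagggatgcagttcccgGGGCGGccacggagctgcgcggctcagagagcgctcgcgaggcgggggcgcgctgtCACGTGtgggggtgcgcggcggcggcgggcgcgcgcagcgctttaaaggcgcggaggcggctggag
Gria4: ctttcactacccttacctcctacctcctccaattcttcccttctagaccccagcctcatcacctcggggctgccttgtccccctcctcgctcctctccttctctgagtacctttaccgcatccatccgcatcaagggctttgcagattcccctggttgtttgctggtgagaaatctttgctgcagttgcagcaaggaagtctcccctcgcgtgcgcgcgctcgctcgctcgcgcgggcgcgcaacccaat
Grik2: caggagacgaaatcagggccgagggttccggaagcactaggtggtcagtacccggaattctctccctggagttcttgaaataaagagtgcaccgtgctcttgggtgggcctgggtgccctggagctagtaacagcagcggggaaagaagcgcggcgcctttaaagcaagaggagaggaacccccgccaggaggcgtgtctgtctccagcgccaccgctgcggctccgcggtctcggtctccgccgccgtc
Chrna7 has 1 GC box and 1 E-box in this window, and the Gria4 and Grik2 windows have no match to the 5 motifs. Among 32851 windows of the same length, 32.7% hold the GC box, 12.4% the TATA box, 6.02% the E-box, 1.55% the cAMP response element and 6.75% the AP-1 site. GC content is 67.2% for Chrna7, 58.8% for Gria4 and 62.8% for Grik2.

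Libraries held 12374331 to 26346304 reads counted in genes, so that 1 read corresponded to 0.0385 to 0.0774 CPM (counts scaled to a fixed library size by TMM factors). The smallest library was vincristine replicate 1, which also stood apart on the first principal component (56.4% of the variance). Its summed level of 18 pan-neuronal markers was 4932 CPM, against 10181 and 12361 CPM in the other vincristine libraries and 9705 to 12671 CPM in vehicle. Its summed level of 9 spinal cord markers (for example Mobp, Mog, Olig1 and Aqp4) was 277 CPM, against 79.4 and 62.1 CPM in the other vincristine libraries and 55.5 to 118 CPM in vehicle. Markers of satellite glia (3141 to 3575 CPM summed) and of Schwann cells (10044 to 15729 CPM) were high in each library, as were the neuronal ones, as the labelled tissue requires. Neutrophil markers summed to 2340 to 7251 CPM in the vincristine libraries, with the highest sum in replicate 1, and to 755 to 1306 CPM in vehicle. Red cell markers summed to 5126 to 13251 CPM in vincristine and 2645 to 4401 CPM in vehicle, and macrophage markers to 488 to 685 CPM and 352 to 403 CPM. B cell markers summed to 3.03 to 6.27 CPM in vincristine and 31.7 to 64.6 CPM in vehicle, and edgeR called 5 of 6 of them lower. No listed marker was at 0 in every library, and the part of these shifts in the receptor values was not tested. For that reason most log2 fold changes are also given without vincristine replicate 1.

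The nicotinic subunits Chrna6 and Chrnb3 had lower levels in every vincristine library than in any vehicle library, and they passed in DESeq2 but not in edgeR. Grik1 and Gria4 took smaller shares of the kainate and AMPA sums in every vincristine library, which was not tested. Shares of several other subunits, most of them higher in vincristine, also did not overlap between the groups. Several low transcripts of other families were high in vincristine replicate 1 alone. The edgeR quasi-likelihood test with Benjamini-Hochberg adjustment over all genes called 0 of the 51 members at an adjusted p under 0.05, against a background of 0.359% of all genes tested (0.0658% lower and 0.293% higher); the smallest adjusted p among members was 0.182. At an unadjusted p under 0.05, 3 members were higher and 5 lower, where 8.10% of all genes were higher and 3.27% lower. DESeq2, which called 3.41% of all genes and 0.491% in the lower direction, called 2 members, Chrna6 and Chrnb3, both lower in vincristine. limma-voom called 0 members. With sample quality weights it called 1 member, Chrnb3, and 2.84% of all genes. The median log2 fold change of vincristine over vehicle was -0.04 over the members and -0.0033 over all genes. Of the 51 members, 23 had a positive and 28 a negative log2 fold change, over a range of -1.16 to 1.34. The vincristine and vehicle libraries did not overlap for 12 members, 4 higher and 8 lower, which is 23.5% of the members against 21.0% of all genes (11.5% higher and 9.51% lower).

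**Figure D1:**
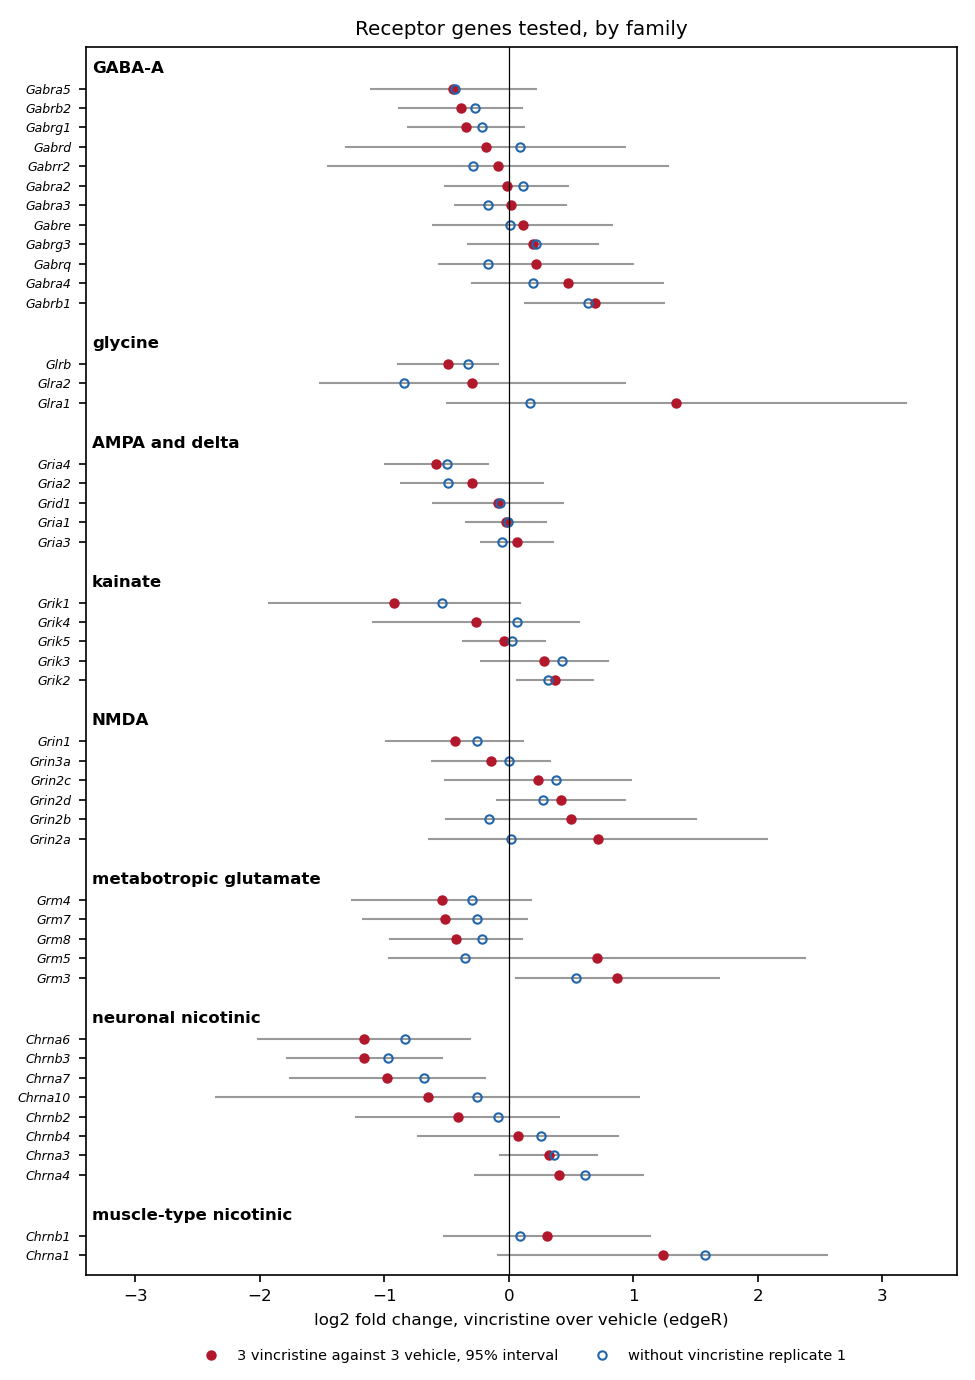
Log2 fold change of vincristine over vehicle (x axis) for 46 of the 51 tested receptor genes, grouped by family: filled points with 95% intervals are the edgeR fit to all 6 libraries, and open points the fit without vincristine replicate 1. Intervals of 3 genes lie wholly above 0 and those of 5 wholly below it, and the open points of Glra1, Grm5, Grin2a and Grin2b lie between -0.35 and 0.17.

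Among the neuronal nicotinic subunits, 5 of 8 tested members had a negative log2 fold change, with a median of -0.53. Without vincristine replicate 1 the median of these subunits was -0.17. Chrna6 encodes the alpha6 subunit, a ligand-binding subunit that pairs with the accessory beta3 subunit encoded by Chrnb3. The genes neighbour each other on chromosome 8 (GRCm38, Chrnb3 at 27368711-27399730 on the plus strand and Chrna6 at 27403212-27413944 on the minus strand) and their annotated exons do not overlap. Chrna6 had 8.75, 26.9 and 21.5 CPM in the vincristine libraries, against 42.9, 49.3 and 36.9 CPM in the vehicle libraries. Every vincristine library was below every vehicle library, and vincristine replicate 1 was the lowest. The log2 fold change was -1.16 ± 0.36 (SE, n = 3 each), which did not pass in edgeR (adjusted p = 0.294) and passed in DESeq2 (adjusted p = 0.0456). Without vincristine replicate 1 it was -0.83 ± 0.15, and edgeR called it (adjusted p = 0.0427, with 2.01% of all genes called). In bulk tissue, fewer cells of a type and less RNA per cell cannot be told apart.

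Chrnb3 stood at 1.39, 2.61 and 2.24 CPM in vincristine and at 5.15, 5.11 and 3.95 CPM in vehicle, from 18, 50 and 58 reads against 92, 98 and 79 reads. The groups did not overlap, and the gap between the lowest vehicle library and the highest vincristine library was wider than the range within either group. Its log2 fold change was -1.16 ± 0.27, with an adjusted p of 0.182 by edgeR, 0.00644 by DESeq2 and 0.0426 by limma-voom with sample quality weights. Without vincristine replicate 1 the value was -0.97 ± 0.22 (edgeR adjusted p = 0.0807).

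Chrna7, whose alpha7 subunit forms homomeric calcium-permeable channels, had 7.74, 17.2 and 19.9 CPM in vincristine libraries and 22.9, 31.9 and 34.4 CPM in vehicle libraries. Again the groups did not overlap, with the lowest value in vincristine replicate 1. Its log2 fold change of -0.98 ± 0.33 did not pass in edgeR (adjusted p = 0.338) or DESeq2 (adjusted p = 0.0970), and it was -0.68 ± 0.18 without vincristine replicate 1 (edgeR adjusted p = 0.141). Chrnb2, the principal beta subunit of neuronal receptors and the most abundant nicotinic transcript by reads, had 29.2, 70.6 and 81.7 CPM in vincristine against 68.7, 91.8 and 81.5 CPM in vehicle. Here only vincristine replicate 1 was below all vehicle libraries, and the groups overlapped (log2 -0.41 ± 0.35, edgeR adjusted p = 0.691; -0.08 ± 0.13 without that library). Chrnb2 shares 1365 exonic bases with Adar on the opposite strand, and whether the counting was strand-specific is not stated in the labels or the tables. In 7 of the 8 tested neuronal nicotinic subunits the lowest of the 6 libraries was vincristine replicate 1, which was so for 36.8% of all genes.

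Of the remaining tested neuronal subunits, Chrna3, Chrna4 and Chrnb4 had positive and Chrna10 negative log2 fold changes. Chrna3 and Chrna4, ligand-binding subunits chosen for mention after their values were seen, averaged 6.65 ± 0.42 and 5.76 ± 2.28 CPM in vincristine, against 5.33 ± 0.70 and 4.41 ± 0.30 CPM in vehicle (SD, n = 3 each). Levels of Chrna3 were higher in every vincristine library (6.19, 6.74 and 7.01 CPM) than in any vehicle library (4.65, 6.04 and 5.30 CPM). Those of Chrna4 overlapped between the groups. Neither passed the test (log2 0.32 ± 0.17 and 0.40 ± 0.29; edgeR adjusted p = 0.529 and 0.642), and the values were 0.37 ± 0.17 and 0.61 ± 0.23 without vincristine replicate 1. Within the summed alpha3, alpha4, alpha6 and alpha7 reads per kilobase, the shares of Chrna3 and Chrna4 in each vincristine library were above those in each vehicle library. Chrna3 took 17.6, 8.32 and 9.0% in vincristine, against 4.10, 4.39 and 4.53% in vehicle, and Chrna4 took 11.5, 6.62 and 11.2%, against 3.83, 3.61 and 3.90%. The share of Chrna6 was 45.1, 60.3 and 50% in vincristine and 68.5, 64.9 and 57.2% in vehicle, with overlapping groups. These shares are descriptions, and no test was made on them. Shares without overlap were also seen in other sums. Chrnb3 took 5.21, 4.21 and 3.22% of the neuronal beta sum in vincristine, against 8.47, 6.27 and 5.69% in vehicle. The shares of Gabrb1, Gabrg3 and Grm3 in their sums were higher in every vincristine library. The GluN2 shares all overlapped. Chrnb4 overlapped between the groups (2.72 ± 0.77 CPM in vincristine and 2.62 ± 1.02 CPM in vehicle). Chrna10 was at 1, 9 and 25 reads in vincristine against 7, 13 and 31 reads in vehicle, with overlapping groups (log2 -0.65 ± 0.72, edgeR adjusted p = 0.765; -0.26 ± 0.59 without vincristine replicate 1), and 1025 of its exonic bases are shared with Art1 on the opposite strand.

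Muscle-type subunits other than Chrnb1 were near the limit of these libraries. Chrna1, the ligand-binding subunit of the neuromuscular receptor, had 4, 19 and 34 reads (0.310, 0.992 and 1.31 CPM) in vincristine against 10, 4 and 8 reads (0.560, 0.208 and 0.4 CPM) in vehicle. Vincristine replicates 2 and 3 were above every vehicle library, and replicate 1 was not. Its log2 fold change of 1.24 ± 0.56 did not pass (edgeR adjusted p = 0.469; 1.57 ± 0.42 and adjusted p = 0.138 without vincristine replicate 1). Summed skeletal muscle markers, 12 of 13 of which were above the test minimum, were at 247, 1189 and 291 CPM in vincristine and 92.4, 142 and 599 CPM in vehicle, and their part in the Chrna1 values was not tested. Chrnb1 overlapped between groups, at 3.17, 2.56 and 1.62 CPM in vincristine against 2.69, 1.41 and 1.75 CPM in vehicle (log2 0.31 ± 0.35, edgeR adjusted p = 0.770; 0.09 ± 0.35 without vincristine replicate 1).

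Kainate receptor subunits included the transcript with the highest mean level per length of all members in the vehicle ganglia. Grik1, which encodes the GluK1 subunit typical of small-diameter sensory neurons, reached 17.6 ± 9.47 RPKM (CPM per kilobase of exon) in vincristine and 33.3 ± 4.56 RPKM in vehicle (SD, n = 3 each). In CPM it had 45.2, 146 and 163 in the vincristine libraries, against 208, 259 and 204 in the vehicle libraries. All vincristine libraries were lower than all vehicle libraries, and vincristine replicate 1 was far below the other vincristine libraries. The log2 fold change was -0.92 ± 0.43 with all libraries (edgeR adjusted p = 0.481) and -0.53 ± 0.13 without vincristine replicate 1 (edgeR adjusted p = 0.113). Grik2, the GluK2 subunit gene, went the other way, with 26.5, 20.7 and 26.7 CPM in vincristine and 19.0, 18.8 and 19.5 CPM in vehicle. The groups did not overlap, but the lowest vincristine library was close to the vehicle libraries. The log2 fold change of 0.37 ± 0.13 did not pass (edgeR adjusted p = 0.354; 0.32 ± 0.13 without vincristine replicate 1).

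Grik3 (GluK3) had 16.6, 20.3 and 26.9 CPM in vincristine and 15.3, 21.7 and 15.5 CPM in vehicle (log2 0.28 ± 0.22, edgeR adjusted p = 0.662). Grik4, an auxiliary high-affinity subunit, had 14.2, 36.5 and 39.2 CPM in vincristine and 29.7, 41.8 and 37.0 CPM in vehicle (log2 -0.26 ± 0.35, edgeR adjusted p = 0.809). Both overlapped between the groups, and Grik4 was low in vincristine replicate 1 alone; without that library the values were 0.43 ± 0.19 for Grik3 and 0.06 ± 0.14 for Grik4. By share of the summed kainate reads per kilobase, Grik1 took 36.6, 56.9 and 58.0% in vincristine, against 69.9, 68.4 and 66.1% in vehicle. Grik2, Grik3 and Grik5 each took a larger share in every vincristine library than in any vehicle library; Grik3, for example, took 10.1, 5.93 and 7.15% against 3.86, 4.28 and 3.77%. The share of Grik4 overlapped between the groups. Shares of one sum are tied, so that a lower Grik1 raises the others: the level of Grik5, chosen for mention after its values were seen, was 30.8 ± 2.79 CPM in vincristine and 31.6 ± 4.72 CPM in vehicle (log2 -0.04 ± 0.14, edgeR adjusted p = 0.944). The shift in the share of Grik1 was present in vincristine replicates 2 and 3 as well as in replicate 1.

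**Figure D2:**
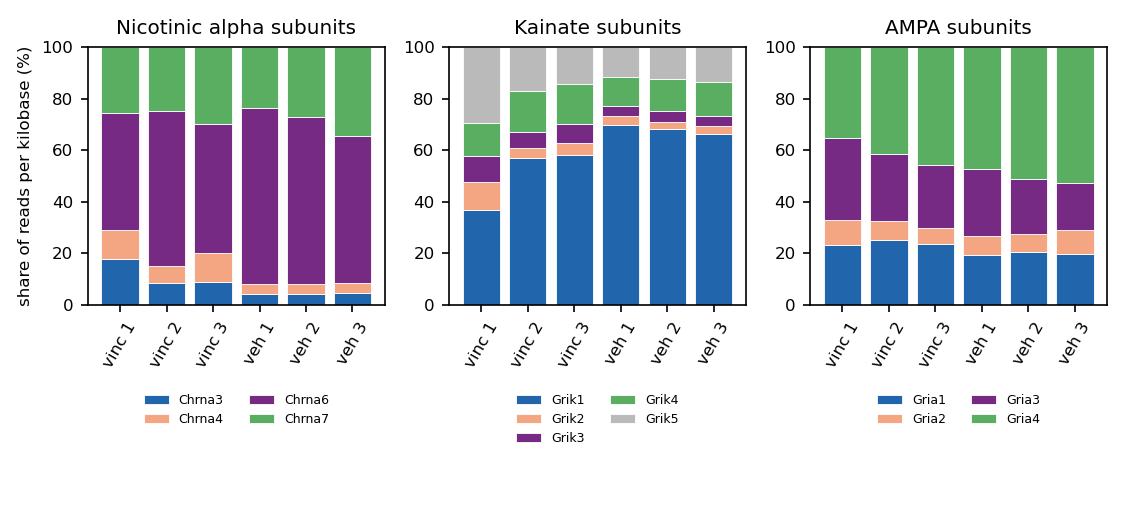
Share of each subunit in the summed reads per kilobase of its group (y axis, percent) in each library (vinc, vincristine; veh, vehicle), for nicotinic alpha subunits, kainate subunits and AMPA subunits. Grik1 takes 36.6 to 58.0% of the kainate sum in vincristine and 66.1 to 69.9% in vehicle, and Chrna3 and Chrna4 take more of the nicotinic alpha sum in every vincristine library than in any vehicle library.

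AMPA receptors carry fast excitatory transmission, and the 4 subunit genes were all detected. Gria4 (GluA4), the most abundant of them per length, had 33.9, 37.7 and 45.2 CPM in vincristine and 46.3, 60.5 and 68.3 CPM in vehicle. The highest vincristine library was just below the lowest vehicle library. A log2 fold change of -0.58 ± 0.17 did not pass (edgeR adjusted p = 0.278, DESeq2 adjusted p = 0.0962), and it was -0.49 ± 0.17 without vincristine replicate 1. Gria2 (GluA2, the subunit that blocks calcium entry) had 23.0, 16.4 and 15.6 CPM in vincristine and 17.5, 19.9 and 29.8 CPM in vehicle, and Gria3 (GluA3) had 47.5, 37.3 and 37.3 CPM against 39.3, 39.8 and 37.4 CPM. Both overlapped between the groups (log2 -0.30 ± 0.24 and 0.07 ± 0.12, edgeR adjusted p = 0.682 and 0.872), with values of -0.49 ± 0.22 and -0.06 ± 0.08 without vincristine replicate 1. Gria1 (GluA1) took 23.0, 25.1 and 23.4% of the AMPA sum per kilobase in vincristine, against 19.5, 20.6 and 19.8% in vehicle, and Gria4 took 35.4, 41.4 and 45.9% against 47.5, 51.1 and 52.5%. For both of these shares the groups did not overlap, and for those of Gria2 and Gria3 they did. The level of Gria1 itself, chosen for mention after its values were seen, was 21.7 ± 0.52 CPM in vincristine and 22.1 ± 3.4 CPM in vehicle (log2 -0.02 ± 0.14, edgeR adjusted p = 0.967), so its larger share came with the lower Gria4 in the same sum. No test was made on the shares.

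Of the NMDA subunits, Grin1, the obligatory GluN1 subunit, had 28.3, 43.1 and 44.7 CPM in vincristine and 38.6, 55.7 and 62.8 CPM in vehicle (log2 -0.43 ± 0.23, edgeR adjusted p = 0.541). Grin2d (GluN2D) had 4.18, 3.13 and 3.04 CPM in vincristine and 2.58, 2.24 and 2.85 CPM in vehicle (log2 0.42 ± 0.22, edgeR adjusted p = 0.529). Grin1 overlapped between the groups and Grin2d did not, each lying in opposite-strand exon overlap with a non-coding gene (1307 and 643 bases). Their log2 fold changes were -0.26 ± 0.19 and 0.27 ± 0.21 without vincristine replicate 1. Grin3a (GluN3A, which lowers calcium entry) had 19.0, 24.2 and 29.9 CPM in vincristine and 21.5, 29.8 and 29.8 CPM in vehicle, with overlapping groups and a log2 fold change of -0.14 ± 0.20 (edgeR adjusted p = 0.818; 0.0025 ± 0.17 without vincristine replicate 1). Grin2a (GluN2A) was at 2.94, 1.04 and 0.848 CPM in vincristine and 1.12, 0.469 and 1.2 CPM in vehicle, high in vincristine replicate 1 alone (log2 0.72 ± 0.58, edgeR adjusted p = 0.679; 0.01 ± 0.43 without that library). The median log2 fold change of the 6 tested NMDA subunits was 0.33 with all libraries and 0.01 without vincristine replicate 1.

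Of the 6 tested metabotropic glutamate receptors, 3 had a positive and 3 a negative log2 fold change, and none passed in edgeR or DESeq2. Their median was 0.14 with all libraries and -0.24 without vincristine replicate 1. Grm5 changed sign without that library, from 0.71 to -0.35. Grm7, Grm8 and Grm4 belong to the group of receptors that lower transmitter release and inhibit adenylyl cyclase, and all had negative log2 fold changes. Grm7, the most abundant of the metabotropic genes, had 24.0, 44.0 and 51.8 CPM in vincristine and 45.2, 62.6 and 63.6 CPM in vehicle (log2 -0.51 ± 0.28, edgeR adjusted p = 0.548). Grm8 had 4.80, 8.14 and 8.52 CPM in vincristine and 8.96, 9.85 and 10.2 CPM in vehicle (log2 -0.42 ± 0.23, edgeR adjusted p = 0.538). Only Grm8 had groups that did not overlap, and the highest vincristine value lay close to the lowest vehicle value. Grm4 had 6.19, 12.3 and 12 CPM in vincristine and 10.4, 16.2 and 18.1 CPM in vehicle, with overlap (log2 -0.54 ± 0.31, edgeR adjusted p = 0.563). Without vincristine replicate 1 the log2 fold changes were -0.25 ± 0.16 for Grm7, -0.22 ± 0.13 for Grm8 and -0.30 ± 0.22 for Grm4. Grm3, also coupled to inhibition of adenylyl cyclase, had 4.26, 1.98 and 2.62 CPM in vincristine and 1.40, 1.30 and 2.05 CPM in vehicle. Vincristine replicate 2 lay below vehicle replicate 3, so the groups overlapped, and the log2 fold change of 0.87 ± 0.35 did not pass (edgeR adjusted p = 0.406; 0.54 ± 0.29 without vincristine replicate 1).

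Of the 15 tested GABA-A subunits, 9 had a negative log2 fold change (median -0.09). Gabrb1 (beta1) was the GABA-A subunit with the smallest p. It had 4.65, 3.97 and 4.24 CPM in vincristine and 1.90, 2.76 and 3.25 CPM in vehicle, from 60, 76 and 110 reads against 34, 53 and 65 reads. All vincristine libraries were higher than all vehicle libraries, vincristine replicate 1 included. The log2 fold change of 0.69 ± 0.24 did not pass (edgeR adjusted p = 0.344) and was 0.63 ± 0.25 without vincristine replicate 1. The gene shares 46 exonic bases with Gabra4 on the opposite strand, and Gabra4 had a log2 fold change of 0.47 ± 0.33 (edgeR adjusted p = 0.631; 0.20 ± 0.29 without vincristine replicate 1). Gabrg1, Gabrb2 and Gabra5, chosen for mention after their values were seen, had log2 fold changes of -0.34 ± 0.20, -0.39 ± 0.21 and -0.44 ± 0.28 (edgeR adjusted p = 0.572, 0.541 and 0.597), and their groups overlapped. Without vincristine replicate 1 these were -0.21 ± 0.18, -0.27 ± 0.19 and -0.43 ± 0.30. Gabra3, also chosen after its values were seen and with overlapping groups, averaged 19.4 ± 4.51 CPM in vincristine and 19.1 ± 2.38 CPM in vehicle (SD, n = 3 each).

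**Figure D3:**
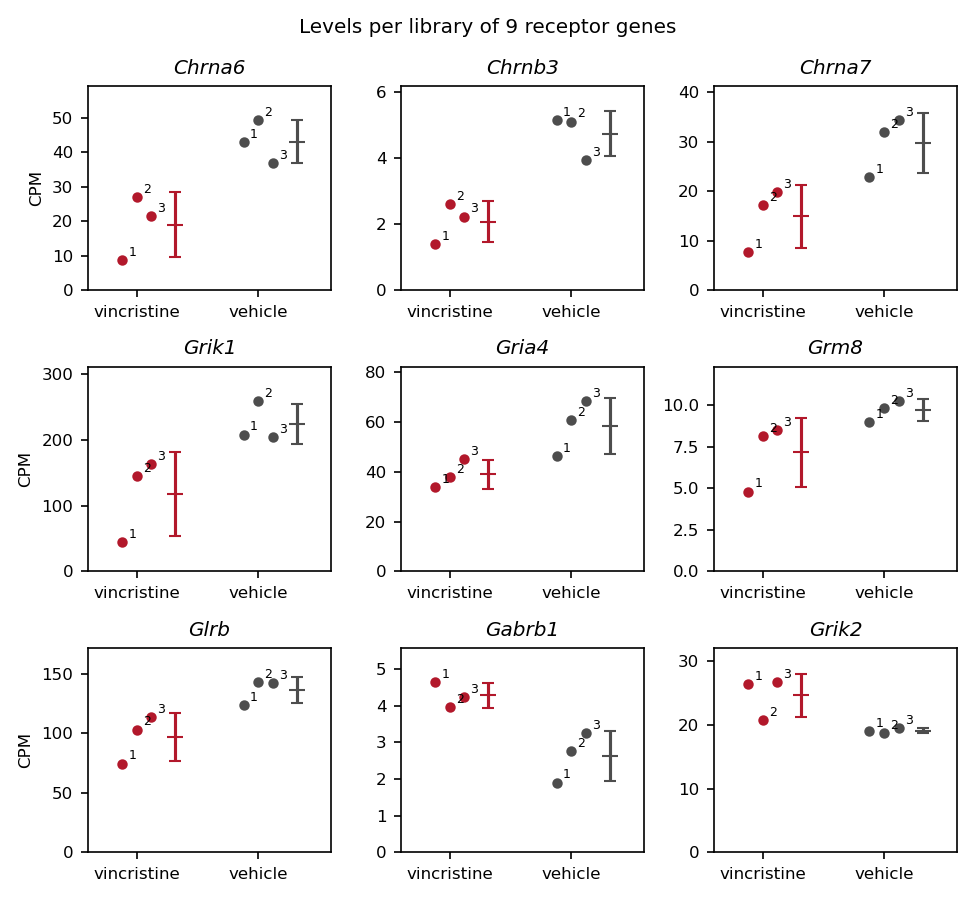
Levels in CPM (y axis) of 9 receptor genes in each library; numbers beside the points are replicates, and the bars to the right of each group are mean ± SD. Chrna6 lies at 8.75 to 26.9 CPM in vincristine and 36.9 to 49.3 CPM in vehicle, Gabrb1 at 3.97 to 4.65 and 1.90 to 3.25 CPM, and vincristine replicate 1 is lowest in the 7 genes that were lower in vincristine.

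Glycine receptors are represented by the shared beta subunit and by alpha subunits. Glrb, the beta subunit that anchors the receptor to gephyrin, had 74.6, 103 and 113 CPM in vincristine and 123, 143 and 142 CPM in vehicle. The groups did not overlap, and vincristine replicate 1 was the lowest. A log2 fold change of -0.49 ± 0.17 did not pass (edgeR adjusted p = 0.353, DESeq2 adjusted p = 0.161), and it was -0.33 ± 0.10 without vincristine replicate 1 (edgeR adjusted p = 0.209). Glra1 (alpha1), typical of spinal cord and brainstem neurons, had 11, 2.45 and 1.97 CPM in vincristine and 2.07, 0.677 and 3.10 CPM in vehicle, the high value being vincristine replicate 1 alone. A log2 fold change of 1.34 ± 0.78 (edgeR adjusted p = 0.573) was 0.17 ± 0.51 without that library. Glra2 (alpha2) was at 0.929, 0.209 and 0.424 CPM in vincristine and 0.616, 0.469 and 0.700 CPM in vehicle (log2 -0.29 ± 0.52, edgeR adjusted p = 0.865; -0.85 ± 0.45 without vincristine replicate 1).

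Of the 8 members that were not tested, Glra3 had 15, 0 and 5 reads in vincristine against 3, 1 and 8 reads in vehicle, and Chrna5 had 4, 5 and 12 reads against 6, 3 and 2 reads. Gabrr1, Gabrr3, Grin3b, Grm2, Grm6 and Chrne had at most 9 reads in any library. For each of these the counts were too low for a comparison. Among the 7 symbols below the minimum of 10 reads, Chrnd had 0 reads in every library, which allows a level of up to 0.116 to 0.232 CPM per library (3 reads, counting error only).

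Per length, the receptor genes spanned a wide range in these ganglia. Mean levels in vehicle, after those of Grik1, were highest for Glrb (29.2 RPKM; 20.8 RPKM in vincristine) and Chrna6 (14.8 RPKM; 6.56 RPKM in vincristine). Vehicle ranges of Grik1 (30.4 to 38.5 RPKM) and Glrb (26.5 to 30.7 RPKM) overlapped, so the order of this pair is within the spread of the libraries. Grin2a lay at the other end of the tested receptor genes named here, at 0.0899 RPKM in vincristine and 0.0518 RPKM in vehicle. Chrnb3, at 0.327 RPKM in vincristine and 0.744 RPKM in vehicle, was far less abundant per length than its neighbour Chrna6.

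Levels in vincristine replicate 1 set some members apart from the rest of the group. Glra1, Grm5, Grin2a and Grin2b were 4.98, 4.42, 3.11 and 2.82 times as high in that library as in the mean of the other vincristine libraries. Grm5 encodes a receptor coupled to phospholipase C, and Grin2b the GluN2B subunit; both were chosen for mention after their values were seen. Grm5 had 13.9, 3.03 and 3.28 CPM in vincristine and 4.03, 1.62 and 6.40 CPM in vehicle, and Grin2b had 14.2, 5.22 and 4.82 CPM against 5.94, 4.69 and 6.20 CPM. Genes known from inhibitory neurons of the spinal cord were also highest there: Gad1, which makes GABA, had 15.3, 2.19 and 1.93 CPM in vincristine and 2.46, 2.55 and 3.15 CPM in vehicle, and Slc6a5, the neuronal glycine transporter and itself on the spinal cord marker list, had 26.0, 5.53 and 5.28 CPM against 4.99, 1.30 and 8.15 CPM. Vehicle replicate 3 was also the vehicle library with the highest sum of spinal cord markers (118 CPM), and vehicle replicate 2 the one with the lowest (55.5 CPM). Log2 fold changes without vincristine replicate 1 were -0.35 ± 0.48 for Grm5 and -0.16 ± 0.18 for Grin2b, against 0.71 ± 0.71 and 0.50 ± 0.43 with it.

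**Figure D4:**
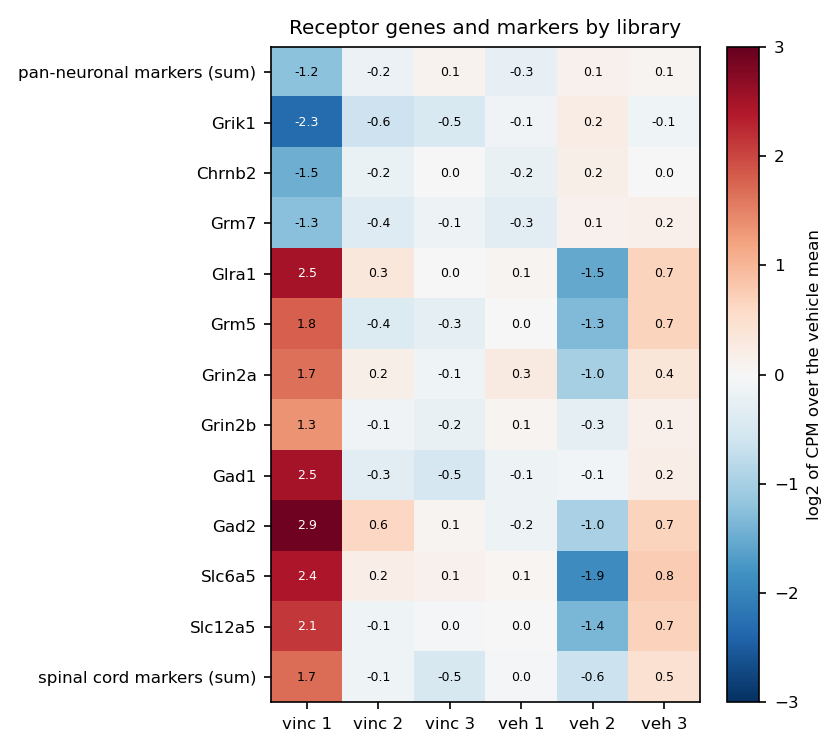
Log2 of the CPM of each gene or marker sum over the vehicle mean (colour and number) in each library (columns; vinc, vincristine; veh, vehicle). In vincristine replicate 1 the pan-neuronal marker sum is at -1.23 and Grik1 at -2.31, while Glra1 is at 2.50, Gad2 at 2.91 and the spinal cord marker sum at 1.68.

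Scaling the libraries on the 18 pan-neuronal genes in place of TMM raised the median gene by 0.45 on the log2 scale. Under that scaling Chrna6 had a log2 fold change of -0.93, Chrnb3 of -0.88, Chrna7 of -0.71 and Grik1 of -0.73. Relative to the median gene these were -1.39, -1.33, -1.17 and -1.18. Of the 51 members 17 were negative under that scaling, against 1439 of all 16706 genes. With TMM these counts were 28 and 8465. The 18 neuronal genes set the zero point, so the split cannot tell the members from neuronal genes in general. The median of the members was -0.055 relative to the median gene under neuronal scaling. Under neuronal scaling edgeR called 0 members, with 6 at an unadjusted p under 0.05, against 1108 of all 16706 genes. The edgeR adjusted p was 0.646 for each of Chrna6, Chrnb3, Chrna7 and Grik1. Other genes, such as Gria2 (-0.30 by TMM, 0.30 under neuronal scaling) and Grin3a (-0.14 and 0.25), changed sign, and Gria2 was at -0.15 and Grin3a at -0.21 relative to the median gene.

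Partner genes of these receptors, in 8 lists, were also compared. edgeR called 0 genes in each of the 8 lists, against 0.359% of all genes. DESeq2 called 4 of the 109 partners tested, or 3.67%, near the 3.41% of all genes that it called. Ly6h, a small GPI-anchored protein that holds back nicotinic receptor trafficking, had 7.82, 10.7 and 10.4 CPM in vincristine and 16.5, 19.1 and 18.1 CPM in vehicle. All vincristine libraries lay below all vehicle libraries, with a gap wider than the range within either group. Its log2 fold change was -0.89 ± 0.15, with an adjusted p of 0.0936 by edgeR and 0.000135 by DESeq2, and -0.76 ± 0.12 without vincristine replicate 1 (edgeR adjusted p = 0.0219). The acetylcholine and chaperone list, 17 of whose 20 names were in the tables, had 4 members higher and 11 lower among 15 tested, with a median of -0.22.

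Shmt2, the mitochondrial serine hydroxymethyltransferase that makes glycine, had 26.4, 21.5 and 22.8 CPM in vincristine and 14.8, 14.5 and 14.8 CPM in vehicle. The vehicle libraries lay within 1 CPM of each other and below all vincristine libraries. A log2 fold change of 0.68 ± 0.12 had an adjusted p of 0.0936 by edgeR and 0.00111 by DESeq2, and it was 0.59 ± 0.10 without vincristine replicate 1 (edgeR adjusted p = 0.0312). Slc6a9, the glial glycine transporter, had 55.2, 29.0 and 28.6 CPM in vincristine and 22.9, 15.5 and 20.3 CPM in vehicle (log2 0.94 ± 0.29, edgeR adjusted p = 0.290; 0.56 ± 0.16 without vincristine replicate 1). The glycine transport and cleavage list had a median of 0.54 over 8 tested genes, and 0.23 without vincristine replicate 1.

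Trak2, a kinesin adaptor that binds GABA-A receptors, had 379, 271 and 278 CPM in vincristine and 203, 189 and 192 CPM in vehicle. The groups did not overlap, and vincristine replicate 1 was the highest. Its log2 fold change was 0.67 ± 0.17 (adjusted p = 0.198 by edgeR and 0.0112 by DESeq2), and 0.50 ± 0.09 without vincristine replicate 1 (edgeR adjusted p = 0.0405). Gls2, a glutaminase that makes glutamate, had 3.48, 4.65 and 4.86 CPM in vincristine and 6.89, 6.62 and 7.5 CPM in vehicle, with no overlap (log2 -0.68 ± 0.18, adjusted p = 0.224 by edgeR and 0.0446 by DESeq2; -0.56 ± 0.15 without vincristine replicate 1).

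The other partners named by the rule passed neither test. Higher values were measured for Plcl2 (a GABA-A receptor trafficking protein, log2 0.55 ± 0.14), Lrp4 (an agrin receptor, 0.54 ± 0.15), Slc38a1 (a glutamine carrier, 0.31 ± 0.12), Wnk1 (a kinase of chloride transporters, 0.28 ± 0.17), Neto1 (a kainate auxiliary subunit, 0.72 ± 0.32) and Dlg2 (a scaffold, 0.29 ± 0.18). The negative ones were Cacng2 (the AMPA auxiliary subunit stargazin, -0.38 ± 0.15) and Nptx1 (a pentraxin that clusters AMPA receptors, -0.69 ± 0.32). Without vincristine replicate 1, Neto1 was at 0.99 ± 0.20 (edgeR adjusted p = 0.0601), Wnk1 at 0.15 ± 0.11 and Nptx1 at -0.40 ± 0.18, and the other 5 moved by less than 1.5 times. Gad2, Slc32a1 (which loads GABA and glycine into vesicles) and Slc12a5 (the neuronal chloride extruder KCC2) had log2 fold changes of 1.69 ± 0.81, 1.59 ± 0.83 and 1.03 ± 0.73, and of 0.36 ± 0.44, 0.30 ± 0.50 and -0.08 ± 0.50 without vincristine replicate 1. Slc12a2, the chloride importer NKCC1 of sensory neurons and chosen for mention after its values were seen, had 285, 282 and 282 CPM in vincristine and 314, 327 and 313 CPM in vehicle (log2 -0.17 ± 0.12, edgeR adjusted p = 0.641). List medians ran from -0.22 for the acetylcholine list to 0.54 for the glycine list, with 0.04 for GABA synthesis, 0.07 for chloride transporters, -0.04 for inhibitory anchoring, -0.09 for AMPA and kainate auxiliary subunits, -0.04 for scaffolds and -0.03 for glutamate transport.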

How the data were processed

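Pools of dorsal root ganglia were sequenced as stranded total RNA in 75-nucleotide reads, per the labels' protocols. Each sample has 1 deposited table of unnormalized read counts by gene symbol, made by the authors with STAR, SAMtools and HTSeq on mm10 (GRCm38), per the submitters' processing notes; the versions, the annotation and the strand setting were not given in the sources used here. Groups follow the sample titles and treatment labels. Table names number vehicle replicate 3 otherwise and state another dose. The HTSeq summary lines were left out; 24.8% of alignments fell outside genes in vincristine replicate 1, and 14.8% to 17.0% in the other libraries.

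Vincristine was compared with vehicle by edgeR 4.0.16 under R 4.3.3 (filterByExpr, minimum count 10; TMM; robust quasi-likelihood F test, two-sided; treatment as the only term; 4 residual degrees of freedom), with p adjusted by Benjamini-Hochberg over all 16706 genes at 0.05. Intervals are 95%, and SE is the log2 fold change over the root of F. CPM uses TMM-scaled library sizes, and RPKM divides by the exon union of GENCODE M21. Alternatives were DESeq2 1.42.0, limma 3.58.1 voom with and without sample quality weights, other scaling, other filters, a replicate block and leaving out each library. Both count tests were tried first on simulated data. There DESeq2 recovered more of the genes changed 2 fold than edgeR did, and also made more false calls. Members and lists were chosen with earlier results of these data known. Members named with values were those called by edgeR or DESeq2 and, per family, the 3 with the smallest edgeR p and the 2 with the highest mean CPM; of each partner list, called genes and the 2 with the smallest p were named. Values of 5 tested members are not reported here. Library pairs within a group differed far beyond sampling noise. Promoters came from RefSeq GRCm38.p6.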

Additional observations from a re-analysis of the deposited data

How the results depend on the processing

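Over all genes, the count of calls was 60 with edgeR, 569 with DESeq2, 35 with limma-voom, 474 with sample quality weights, 19 with neuronal scaling, 99 with no filter beyond 1 read, 261 with the replicate block and 0 to 336 when 1 library was left out (336 without vincristine replicate 1, 6 and 18 without replicates 2 and 3, and 0 without any vehicle library, with 1020 to 1436 genes at an unadjusted p under 0.05). Members called numbered 0 with edgeR and 2 with DESeq2. At an unadjusted p under 0.05 DESeq2 had 10 members, against 2107 of all 16706 genes. Sample quality weights called 1 member and the replicate block 1 (Chrna7, adjusted p = 0.0463). Leaving out 1 library gave 0 to 1 members called (1 without vincristine replicate 1). Whether replicate numbers pair the samples was not settled. Same-number deviations correlated at 0.43, 0.25 and -0.09. The vehicle library of the same number was the best match for vincristine replicates 1 and 2. Vincristine replicate 3 correlated best with vehicle replicate 2 (0.49). With only 3 libraries per group these correlations cannot decide the question.

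Neuronal scaling, which raised the median gene by 0.45, moved medians to 0.40 for the members, 0.38 for GABA-A, 0.46 for ionotropic glutamate and 0.69 for metabotropic genes, 0.59 for GABA synthesis, 0.52 for chloride transporters, 0.37 for inhibitory anchoring, 0.30 for auxiliary subunits, 0.41 for scaffolds, 0.35 for glutamate transport, 1.05 for glycine transport and 0.19 for the acetylcholine list. With no filter the metabotropic median was 0.70 and the chloride transporter median 0.030. With sample quality weights the glycine transport median was 0.34.

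When 1 library was left out, ranges were -0.24 to 0.36 for the metabotropic median, -0.19 to 0.16 for GABA synthesis, 0.028 to 0.107 for chloride transporters, -0.0656 to 0.092 for scaffolds and 0.23 to 0.62 for glycine transport. They were -0.85 to 0.094 for Glra2, -0.057 to 0.14 for Gria3, -0.51 to 0.064 for Grik4, -0.32 to 0.0025 for Grin3a and -0.081 to 1.56 for Slc12a5. Genes called numbered 0 to 1 in the anchoring, glycine and acetylcholine lists, against 0 to 336 of all 16706 genes.

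In the partner lists DESeq2 called 1 gene each in the anchoring, glutamate transport, glycine and acetylcholine lists. Sample quality weights, and edgeR without vincristine replicate 1, called 1 each in the anchoring, glycine and acetylcholine lists, and the replicate block 1 in the acetylcholine list (Ly6h). Of all genes, DESeq2 called 3.41%, sample quality weights 2.84% and edgeR without vincristine replicate 1 2.01%. The replicate block called 261 of all 16706 genes. Signs changed under neuronal scaling for Glra2 (0.28), Gria2 (0.30), Grin3a (0.25) and Cacng2 (0.12); with sample quality weights for Gria3 (-0.043). Among the named genes 33 of 41 kept their direction and side of the threshold without vincristine replicate 1 and 35 of 41 with DESeq2. The cause of these differences was not tested. Depth limits genes with few reads, such as Glra3 and Chrna5 (32 reads each over the 6 libraries).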
